A study of Sus scrofa with 22 samples.

Results

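NF-κB is a family of dimeric transcription factors that inhibitor of κB (IκB) proteins hold in the cytoplasm until an upstream signal releases them. In the canonical branch, Toll-like, interleukin 1 and tumour necrosis factor receptors act through adaptors on the IκB kinase complex, which marks the inhibitors for degradation and frees dimers of the RELA, REL and NFKB1 products. In the non-canonical branch, stabilised MAP3K14 kinase and CHUK lead to processing of the NFKB2 product, the partner of RELB. Several of the genes that NF-κB switches on encode its own inhibitors and brakes, so that a rise of their mRNA is widely read as a trace of the pathway. In the pig uterus, the elongating conceptus releases interleukin 1 beta, an activator of this pathway, around the time studied here.

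The genes described here are 50 named components of the pathway, namely 28 of the canonical branch, 6 of the non-canonical branch and 16 inhibitors, brakes and other feedback genes. They were listed by name as known components, with earlier results of these data known. Of the 50, 49 were matched by symbol in the NCBI annotation of the pig genome assembly Sscrofa11.1, BIRC2 being the exception, and 48 of the 12401 genes listed for any cell type were members, TNIP2 being listed for none. The table of the luminal epithelium (LE) held 45 members, that of the glands (glandular epithelium, GE) 45 and that of the stroma (S) 47, and 42 were in all 3 tables. MAP3K8, CD14 and TRAF1 were not listed for LE, RELB and NFKBIE were not listed for GE, and IRAK2 was listed for LE alone. A gene that is not in a table had been removed by the authors' filter on low values and was not analysed there. A gene low in control libraries may have been listed only through the pregnant ones, and its difference then follows in part from the filter. Of the members, this may hold for RELB and NFKBIE in LE and for MAP3K8 and CD14 in S.

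RNA-seq was performed on cells cut from endometrial sections by laser capture microdissection (LCM). The 8 gilts were crossbreeds of German Landrace and Piétrain that had not reached puberty and in which ovulation had been induced with PMSG and hCG. Gilts of the pregnant group (01, 03, 05 and 14) had been inseminated with semen, and those of the control group, which are nonpregnant cyclic gilts (02, 04, 06 and 13), with semen supernatant of the same boar, and all endometria were collected on Day 12. Each gilt gave 1 LE and 1 GE library, and 6 of them (3 pregnant, 3 control) gave 1 S library, which makes 22 libraries with 893912 counts (pregnant LE, gilt 01) to 4020796 counts on listed genes. The S areas are by design a mix of fibroblasts and other cells. Values are given as CPM (counts scaled to the same library total) after TMM scaling within the table of 1 cell type, so that a level of 3 counts corresponds to 0.746 to 3.36 CPM before that scaling, depending on the library.

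Marker genes did not separate the libraries by their labels. All 7 epithelial markers (among them EPCAM and CDH1) and all 8 fibroblast markers (among them COL1A1 and DCN) were listed in each table, and none was at 0 in any library. Summed fibroblast markers lay between 4755 and 8510 CPM in control S and thus below the 11439 to 16966 CPM of control LE, while the summed epithelial markers of control S (2593 to 3253 CPM) overlapped those of control LE (2793 to 3395 CPM). The tables were normalised separately, which limits such comparisons of levels. Pregnant S of gilt 01 and control GE of gilt 02 stood apart from the rest with 62199 and 46948 CPM of fibroblast markers and 1230 and 768 CPM of epithelial markers. Leukocyte markers were low, with PTPRC at group means between 15.3 and 42.2 CPM. Libraries are therefore called by their label, and results in GE and S are also given without these 2 libraries.

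**Figure D1:**
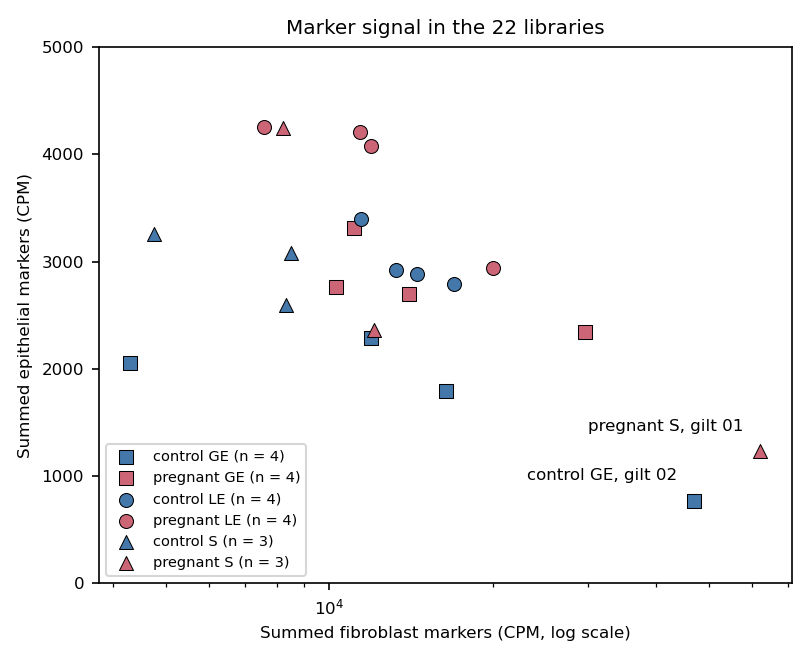
Summed CPM of 7 epithelial markers (linear axis) against the summed CPM of 8 fibroblast markers (log axis) in each of the 22 libraries, with shape for the cell type and colour for the group. Pregnant S of gilt 01 and control GE of gilt 02 lie at the lower right, and the 3 control S libraries lie at the left with epithelial values like those of LE.

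DNA sites for NF-κB follow a 10-base consensus that opens with GGG and ends with CC. This κB consensus was searched on both strands in Sscrofa11.1, from 500 bases before to 50 bases after the annotated start of each gene. It was present at least once in 12.5% of the 12395 windows of listed genes that could be read and in 15 of the 48 listed members (31.25%). Of the 11 members that were called higher in pregnant LE below, 6 held a match, and of the 37 others 9 did (24.3%). A match describes letters only, and binding was not measured. Sites of the 6 called genes are shown first because these are the genes on which the LE comparison turns, and 2 of the sites of TNFAIP3 and 1 of those of IKBKB, members that were not called, are shown for comparison. Of matches shifted by 1 base against each other, 1 is shown. Each is written 5′ to 3′ on the strand of the gene with the match in capitals and up to 10 flanking bases on each side, and a match that begins with GGA is the consensus on the opposite strand.
NFKB2, chr14:113406055-113406084 (+): gcttccccttGGGATTCCCCggcttctgag
NFKB2, chr14:113406396-113406425 (+): gaaacgtcacGGGAATTCCCccctcctggg
NFKB2, chr14:113406424-113406453 (+): gggcggaaaaGGGGCTTTCCcggctggagt
NFKBIA, chr7:64507663-64507692 (+): aatcgatcgtGGGAAACCCCagggaaaata
NFKBIA, chr7:64507916-64507945 (+): tgactggcttGGAAATTCCCcgagcttgac
NFKBIB, chr6:47703639-47703668 (+): gggcgtgttgGGGAATTCCCcgcagggcgg
RELB, chr6:51444550-51444579 (+): gtgatgcgtgGGGGTTTTCCcattccccta
RELB, chr6:51444622-51444651 (+): cggcggcgccGGGGAATTCCgccgccccgc
REL, chr3:80912517-80912546 (-): gaagaagatcGGGGGTCTCCgtatgcaaat
TNIP1, chr16:71925953-71925982 (+): cctgggcgctGGAATCCCCCacctctggcc
TNFAIP3, chr1:26489732-26489761 (-): tcacgtgactGGAAAGTCCCtgggtggaaa
TNFAIP3, chr1:26489945-26489974 (-): gactcacgcgGGGACACCCCggggcggggc
IKBKB, chr17:11289394-11289423 (+): ggcgggggctGGGAAATTCCccccataata
The match of NFKB2 at chr14:113406396-113406425 and that of NFKBIB lie across or next to the annotated gene start, and both read GGGAATTCCC on either strand. The exons annotated for NFKBIA add up to 945 bases, and its window was taken from that annotated start.

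The first comparison asks which components of the pathway differ in mRNA level between pregnant and control LE, the layer in contact with the conceptus. The called members were higher in pregnant LE without exception. At an FDR below 0.01, 11 of 45 listed members were called (24.4%), whereas 10.0% of the 11415 listed genes were called, 6.33% as higher and 3.71% as lower. Members were chosen with earlier results of these data known, so their share is not independent of those results. The called members were the subunit genes NFKB2, RELB and REL, the inhibitor genes NFKBIA, NFKBIB and NFKBIE, the kinase genes IKBKE and TBK1, the adaptor gene TRAF2, and the feedback genes TNIP1 and BIRC3. By the parts assigned here these were 4 of 26 canonical (REL, TRAF2, IKBKE and TBK1), 2 of 5 non-canonical and 5 of 14 feedback genes. RELB and NFKBIE, each with at most 23 counts in any control LE library, are included in these counts. Both may have been listed only through the pregnant libraries, so the counts of called members follow in part from the authors' filter. IKBKE and TBK1 encode IκB kinase-related kinases, and no gene of the IκB kinase complex itself was called. The median log2 fold change (log2 FC, pregnant minus control) was 0.49 over the 45 members and 0.01 over all genes listed for LE. In bulk samples such as these, fewer cells of a type and less RNA per cell cannot be told apart.

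**Figure D2:**
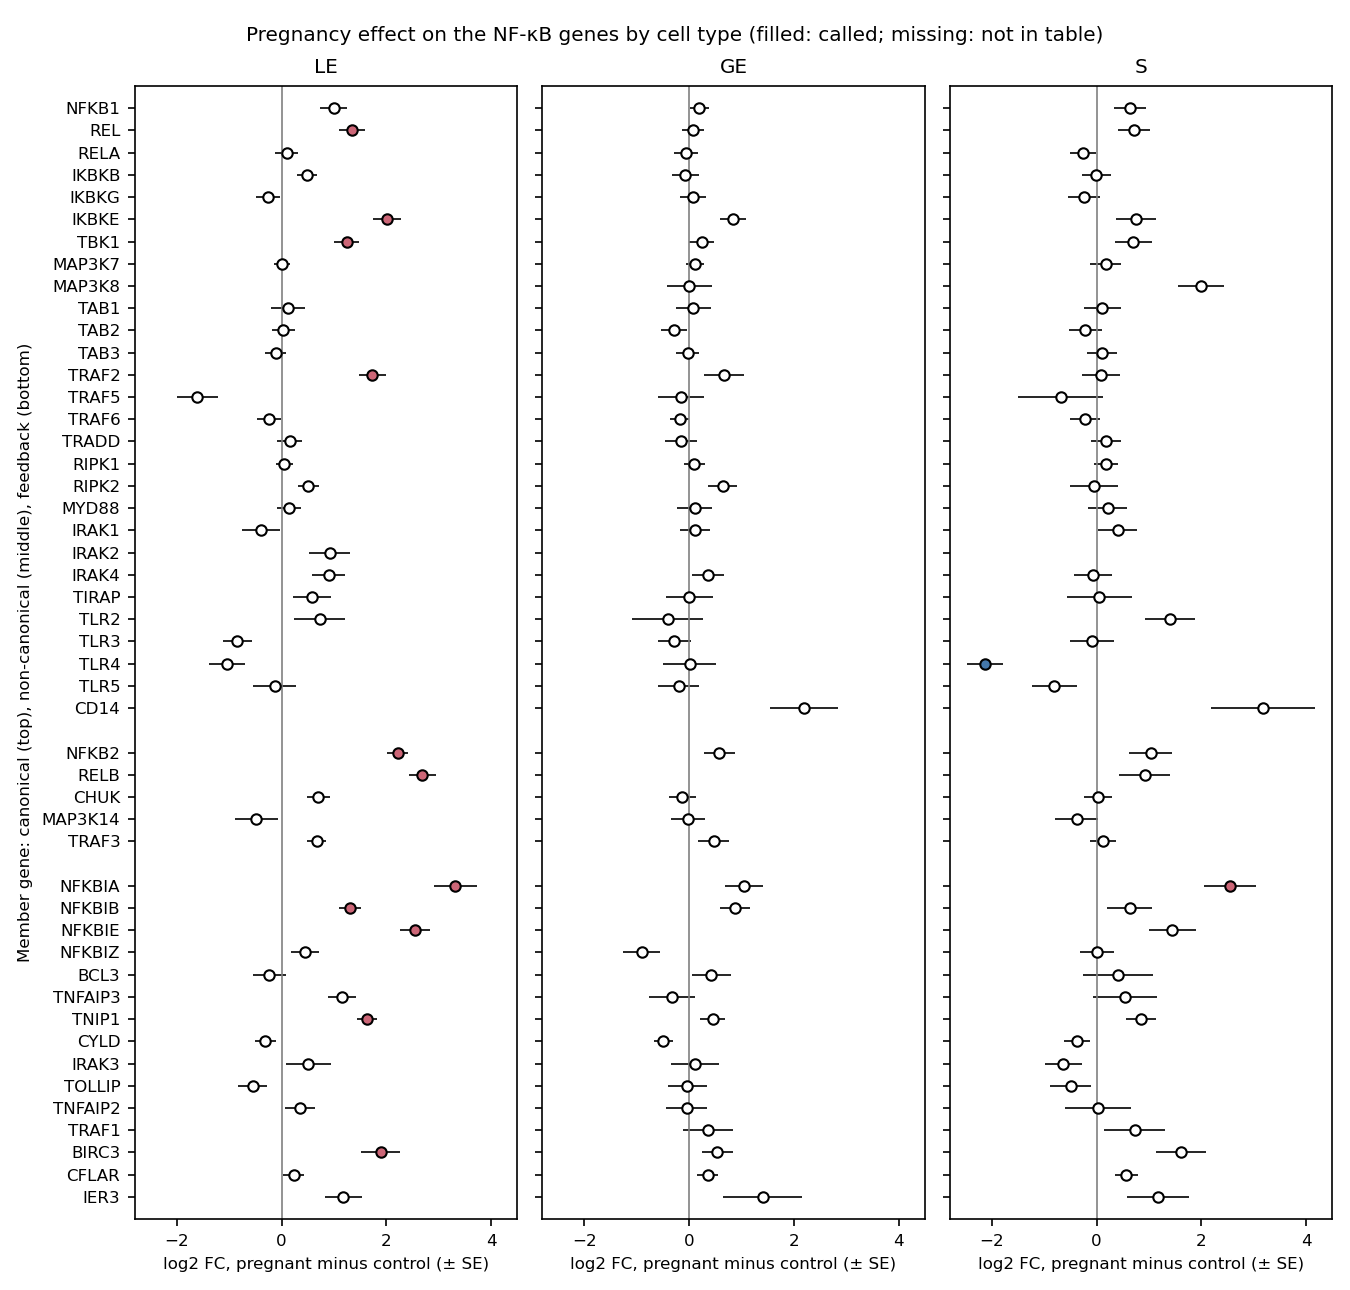
Log2 FC of pregnant against control (± SE) for the 48 listed members in LE, GE and S, with filled points for called genes (FDR below 0.01 in LE, p below 0.0021 in GE and S). In LE, 11 points are filled on the right side, in GE none, and in S NFKBIA is filled on the right and TLR4 on the left.

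Among the subunits, NFKB2 had the smallest adjusted p. The gene (chr14:113406412-113414177, + strand) encodes the p100 precursor of the p52 subunit. Its LE level was 14.96, 16.6, 18.8 and 23.3 CPM in the control libraries and 74.7, 79.0, 91.3 and 94.5 CPM in the pregnant libraries. The groups were far apart in relation to their spread, and the log2 FC was 2.21 (SE 0.19, FDR = 8.2e-05, edgeR quasi-likelihood test). RELB (chr6:51444670-51480350, + strand), the usual dimer partner of p52, was at 3.13, 4.54, 5.29 and 5.54 CPM in control and 25.7, 29.3, 30.1 and 34.4 CPM in pregnant LE. This 6.43-fold difference (log2 FC 2.68, SE 0.26, FDR = 0.00013) was the largest among the subunits. RELB had at most 23 counts in any control LE library and may have passed the authors' filter through the pregnant libraries alone. REL (chr3:80861862-80912233, - strand), which encodes the c-Rel subunit, was at 32.9 to 50.6 CPM in control and at 65.4, 83.1, 128 and 128 CPM in pregnant LE (log2 FC 1.34, SE 0.25, FDR = 0.004). All 4 pregnant libraries lay above the controls, but the call of REL was lost in 5 of 8 fits that left out 1 library. Of the exon bases of REL, 11.4% overlap PUS10 on the opposite strand, and it is not stated whether the counting used strand.

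The remaining subunits were not called. NFKB1 (chr8:118391010-118478927, - strand), which encodes the p105 precursor of p50, was at 38.7, 42.8, 42.8 and 47.0 CPM in control and 49.0, 75.3, 89.5 and 124 CPM in pregnant LE. The groups did not overlap, but the pregnant library of gilt 01 was close to the controls, and the log2 FC of 0.99 (SE 0.25) had an FDR of 0.018. Without that library the log2 FC of NFKB1 was 1.16 with an FDR of 0.003. The likelihood ratio test of edgeR (FDR = 0.0024) and DESeq2 (FDR = 0.0020) called NFKB1 higher. RELA (chr2:6594869-6602684, + strand), the p65 subunit with the main activating domain of the family, was at 30.5 to 40.5 CPM in control and 30.6, 30.8, 45.5 and 50.9 CPM in pregnant LE. Its groups overlapped (log2 FC 0.10, SE 0.22, FDR = 0.79), and the sign was negative when library size alone was used for scaling.

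Divided by exon length, the subunit genes were in a different order in the groups of LE libraries. Control LE held 22.04 ± 2.70 CPM per kilobase of RELA, 12.9 ± 1.02 of NFKB1, 5.58 ± 1.10 of NFKB2, 2.39 ± 0.45 of REL and 1.98 ± 0.46 of RELB (mean ± SD, n = 4). REL and RELB did not differ beyond their spread. Pregnant LE held 25.7 ± 2.88 CPM per kilobase of NFKB2, 25.5 ± 9.38 of NFKB1, 23.8 ± 6.24 of RELA, 12.8 ± 1.52 of RELB and 5.999 ± 1.88 of REL (n = 4). There the first 3 did not differ beyond their spread. These values rest on the annotated exon lengths, of which REL has 16827 bases.

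The IκB genes held the largest change of all members in LE. NFKBIA (chr7:64508119-64510754, + strand), which encodes IκB alpha, was at 11.8, 12.0, 16.7 and 23.0 CPM in control LE and at 66.5, 139, 164 and 266 CPM in pregnant LE. The lowest pregnant library, of gilt 03, was still well above the highest control, and the mean rose from 15.9 ± 5.3 to 159 ± 82 CPM (SD, n = 4 and 4). The log2 FC was 3.31 (SE 0.41, FDR = 0.0005). NFKBIE (chr7:39255078-39266085, - strand), encoding IκB epsilon, was at 2.95, 4.01, 4.87 and 5.29 CPM in control and 17.7, 26.3, 28.1 and 30.4 CPM in pregnant LE (log2 FC 2.55, SE 0.29, FDR = 0.00034). NFKBIB (chr6:47703644-47712661, + strand), encoding IκB beta, was at 8.97 to 12.3 CPM in control and at 24.4, 25.9, 27.2 and 28.0 CPM in pregnant LE. It had the narrowest pregnant group of the 3 inhibitors (log2 FC 1.30, SE 0.21, FDR = 0.002). The atypical nuclear IκB genes NFKBIZ (0.44, SE 0.27) and BCL3 (-0.23, SE 0.31) had smaller log2 FC values with overlapping groups.

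Of the kinase genes, IKBKE and TBK1, which encode the IκB kinase-related kinases, were called. IKBKE (chr9:67123055-67147991, + strand) was at 5.22, 6.64, 9.89 and 10.4 CPM in control LE and 28.0, 30.6, 34.0 and 37.5 CPM in pregnant LE, with no overlap (log2 FC 2.01, SE 0.27, FDR = 0.00071). TBK1 (chr5:28880210-28929964, + strand) was at 39.5 to 48.1 CPM in control and at 63.0, 90.4, 132 and 133 CPM in pregnant LE (log2 FC 1.24, SE 0.24, FDR = 0.0048). Its call was lost in 5 of 8 fits that left out 1 library. The classical IκB kinase subunits were not called. IKBKB had a log2 FC of 0.49 (SE 0.19, FDR = 0.086), CHUK of 0.70 (SE 0.23, FDR = 0.048), and IKBKG, the regulatory subunit, of -0.27 (SE 0.23). MAP3K7, the kinase upstream of that complex, and its partners TAB1, TAB2 and TAB3 had log2 FC values between -0.11 and 0.12, and MAP3K14 had -0.48 (SE 0.40). Over the 10 kinase genes and partners listed for LE, the median log2 FC was 0.08, compared with 1.34 over the 5 subunits and 1.30 over the 5 IκB genes. The subunits include RELB and the IκB genes include NFKBIE, which may have been listed only through the pregnant libraries.

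Of the adaptor and receptor genes listed for LE, TRAF2 alone was called. At an unadjusted p below 0.05, 6 of 12 adaptor and 2 of 4 receptor genes were counted, compared with 4059 of all 11415 genes. TRAF2, an adaptor of tumour necrosis factor receptors that lies on an unplaced scaffold, was at 9.89, 11.0, 11.8 and 14.02 CPM in control and at 28.4, 31.7, 44.4 and 51.9 CPM in pregnant LE (log2 FC 1.73, SE 0.25, FDR = 0.0012). The other 11 adaptor genes listed were not called. MYD88, the adaptor shared by Toll-like and interleukin 1 receptors, had a log2 FC of 0.14 (SE 0.23), and 37.3% of its exon bases overlap ACAA1 on the opposite strand. TLR4, the receptor for bacterial lipopolysaccharide (chr1:258044610-258054641, + strand), was at 45.8, 46.5, 47.0 and 56.2 CPM in control and at 10.5, 13.6, 33.2 and 34.7 CPM in pregnant LE. The groups did not overlap, and the log2 FC of -1.04 (SE 0.34) had an FDR of 0.051. The 4 receptor genes listed for LE had a median log2 FC of -0.49.

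Of the brakes and induced feedback genes, TNIP1 and BIRC3 were called. TNIP1 (chr16:71926038-71979969, + strand), which encodes a ubiquitin-binding partner of A20, was at 22.3 to 25.5 CPM in control and at 54.9, 71.0, 74.3 and 94.5 CPM in pregnant LE (log2 FC 1.64, SE 0.19, FDR = 0.0004). BIRC3 (chr9:33003570-33020252, + strand), the ubiquitin ligase cIAP2, was at 79.3, 84.7, 89.8 and 101 CPM in control and 153, 186, 476 and 496 CPM in pregnant LE. The pregnant libraries fell far apart from each other (328 ± 180 CPM, SD, n = 4), and the log2 FC of 1.89 (SE 0.37, FDR = 0.0055) lost its call in 5 of 8 fits without 1 library. TNFAIP3, which encodes A20, was not called (log2 FC 1.15, SE 0.27, FDR = 0.013), although its groups of 172 to 275 and 341 to 730 CPM did not overlap. The likelihood ratio test of edgeR and DESeq2 did call TNFAIP3 higher. IRAK3, CYLD and TOLLIP, further brakes, had log2 FC values of 0.51, -0.31 and -0.55 with overlapping groups.

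**Figure D3:**
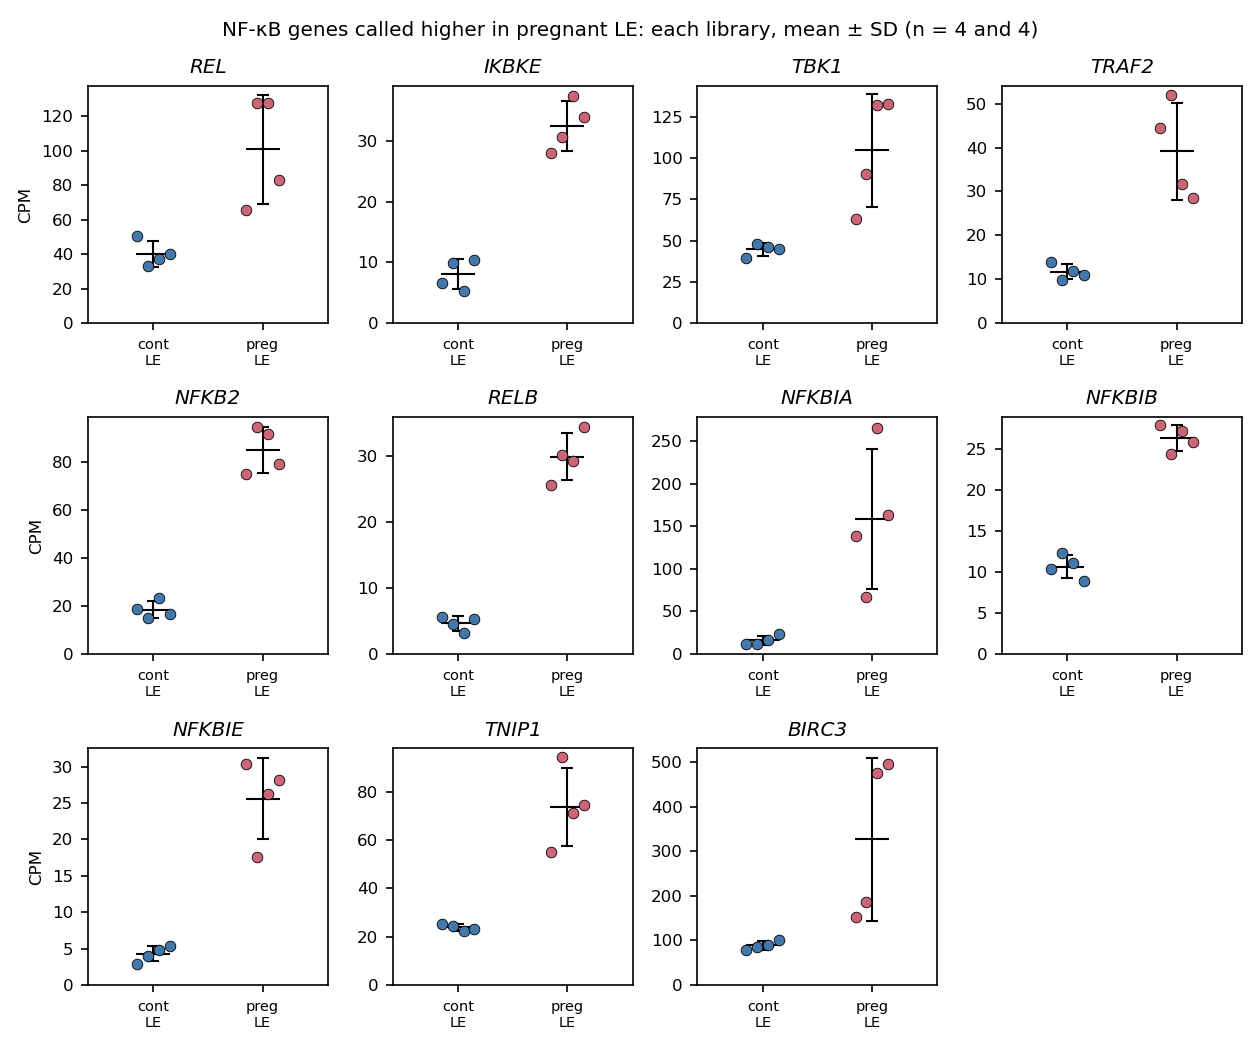
CPM of the 11 members called in LE, with 1 point per library, for the 4 control and the 4 pregnant gilts, and bars for the mean ± SD on axes that start at 0. In each panel the pregnant points lie above all control points, with the widest spread in NFKBIA, BIRC3, REL and TBK1.

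With a limit of FDR below 0.05, 16 members were higher and 2 lower in pregnant LE, whereas 12.8% of all genes were higher and 9.63% lower. The 7 members that this adds were NFKB1, CHUK, TRAF3, TNFAIP3 and IER3 among the higher and TRAF5 and TLR3 among the lower, and those outside the subunits were named after their values were seen. TRAF5, an adaptor of the tumour necrosis factor receptor family, was at 26.2 to 32.7 CPM in control LE, at 6.65, 6.87 and 7.27 CPM in 3 pregnant libraries and at 24.5 CPM in pregnant LE of gilt 01. It was called lower (FDR below 0.01) when that library was left out. Of the markers listed for LE, 2 of 7 epithelial ones were called higher and 2 lower, and none of the 8 fibroblast, 6 endothelial, 3 leukocyte or 8 macrophage markers was called. Summed macrophage markers lay between 127 and 253 CPM in control and between 80.7 and 152 CPM in pregnant LE.

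Genes around this core, in lists of receptors, other regulators and known targets, changed in both directions in LE, where 6.33% of all genes were called higher and 3.71% lower. These lists, too, were chosen with earlier results of these data known. Of 11 listed upstream receptor genes (15 named), IL1R1 (log2 FC 2.89), IL1RAP (2.56) and TNFRSF21 (2.32) were called higher and IL18R1 (-1.34) lower. IL1R1 and IL1RAP encode the subunits of the signalling interleukin 1 receptor, and IL1R1 was at 305 ± 92 CPM in control and 2270 ± 595 CPM in pregnant LE (mean ± SD, n = 4 and 4). Of 28 listed other regulators (30 named), PELI1 (1.93) and TANK (1.49) were called higher, and PELI2 (-2.41), MALT1 (-1.81), BTRC (-1.06) and RPS6KA5 (-3.45) lower. MALT1 links antigen receptors to the IκB kinase, and BTRC is the ubiquitin ligase subunit that recognises phosphorylated IκB. Of 23 listed known targets (40 named), 7 were called higher and 1 lower. The higher ones were SOD2 (log2 FC 3.46), GADD45A (2.99), ZC3H12A (2.42), GADD45B (2.35), BCL2L1 (2.06), SDC4 (1.17) and SAA3, and the lower one was IL1A (-1.19). SAA3, an acute-phase gene, had at most 1 count in any control LE library and 117 ± 85.6 CPM (SD, n = 4) in pregnant LE, so that no fold is given. It may have passed the authors' filter through the pregnant libraries alone. SOD2, encoding the mitochondrial superoxide dismutase, was at 11.0 ± 2.06 CPM in control and 122 ± 60.8 CPM in pregnant LE (n = 4 and 4).

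The same comparison in GE found no called member. At p below 0.0021 (unadjusted), 0 of 45 listed members were called, and of all 11676 listed genes 0.694% were. At an unadjusted p below 0.05, 7 members were counted (15.6%), compared with 8.09% of all genes, and DESeq2 and the likelihood ratio test of edgeR called 1 each (CD14). The median log2 FC was 0.08 over the members and -0.02 over all genes listed for GE. None of the subunits was called, with log2 FC values of 0.58 for NFKB2 (SE 0.30), 0.20 for NFKB1 (SE 0.18), 0.08 for REL (SE 0.20) and -0.06 for RELA (SE 0.23).

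NFKBIA in GE was at 12.9, 17.5, 24.3 and 29.2 CPM in control and at 20.5, 49.1, 52.0 and 53.3 CPM in pregnant libraries. The pregnant library of gilt 03 lay among the controls and the other 3 above them (log2 FC 1.05, SE 0.36, FDR = 0.48). NFKBIB (log2 FC 0.87, SE 0.29, FDR = 0.47) and IKBKE (0.84, SE 0.25, FDR = 0.44) had groups without overlap but did not reach the threshold. CD14 (chr2:142348036-142349686, - strand), the co-receptor that presents lipopolysaccharide to TLR4, was at 4.72, 6.68, 7.002 and 16.7 CPM in control GE and at 10.3, 30.7, 36.3 and 85.4 CPM in pregnant GE. The pregnant library of gilt 14 lay below the highest control, and the log2 FC was 2.19 (SE 0.64, FDR = 0.42). CD14 is also expressed by macrophages, whose 10 listed markers, CD14 among them, summed to 130 to 226 CPM in control and 99.7 to 232 CPM in pregnant GE. Without control GE of gilt 02, which was rich in fibroblast markers, the log2 FC was 2.10 for CD14 (FDR = 0.37) and 1.25 for NFKBIA (FDR = 0.32), and no member was called. The log2 FC of CD14 depended on single libraries. It was 1.53 without pregnant GE of gilt 03 (FDR = 0.65) and 1.32 in the 6 gilts that gave an S library (FDR = 0.93), and CD14 was called higher without pregnant GE of gilt 14 (2.52, FDR = 0.20). TLR4 in GE was at 13.6 to 46.4 CPM in control and 13.8 to 63.7 CPM in pregnant libraries (log2 FC 0.01, SE 0.51), with a sign that depended on the library left out. Of the surrounding genes, 1 known target was called in GE, SOD2, with 14.4 ± 3.46 CPM in control and 30.8 ± 2.87 CPM in pregnant GE (n = 4 and 4, log2 FC 1.09, SE 0.23, FDR = 0.25).

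In the libraries labelled S, 1 member was called higher and 1 lower at p below 0.0021, out of 47 listed. Of all 11532 listed genes, 0.425% were called higher and 1.05% lower. NFKBIA was at 12.99, 13.2 and 15.8 CPM in control S and at 45.6, 51.8 and 147 CPM in pregnant S. The library of gilt 05 was the highest by far, and the log2 FC was 2.54 (SE 0.50, FDR = 0.12). Its call was lost when any of the 3 control libraries was left out, with log2 FC values of 2.49 to 2.64 in those fits. Without pregnant S of gilt 05 the call was kept with a smaller log2 FC of 1.79 (FDR = 0.074). TLR4 was at 38.6, 67.7 and 74.7 CPM in control S and at 11.6, 14.4 and 15.4 CPM in pregnant S. The 3 pregnant libraries lay close together, and TLR4 fell by 2.13 on the log2 scale (SE 0.34, FDR = 0.081), a call that was kept in 6 of 6 fits without 1 library. Without pregnant S of gilt 01, the library richest in fibroblast markers, the log2 FC was 2.75 for NFKBIA (FDR = 0.12) and -2.23 for TLR4 (FDR = 0.11). No marker of another or the labelled cell type was called in S, and most of their values lay above 0. All 8 fibroblast markers (median log2 FC 1.55), 6 of 6 endothelial (1.22) and 9 of 9 macrophage markers (0.93) had a log2 FC above 0, while 3 of 7 epithelial ones did. The fibroblast markers summed to 4755 to 8510 CPM in control and 8228 to 62199 CPM in pregnant S, and the endothelial markers to 249.5 to 461 and 277 to 1906 CPM. The 9 macrophage markers include CD14, itself a member. They summed to 99.2 to 115 CPM in control S and to 96.5, 137 and 417 CPM in pregnant S of gilts 14, 05 and 01. CD14 itself was at 0.37 to 4.09 CPM in control S and at 3.98, 24.8 and 22.7 CPM in these pregnant libraries. Macrophages are a further source of TLR4 mRNA. The part of these cells in the values for S was not tested.

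The other members in S gave values without a call. At an unadjusted p below 0.05, 10 of 47 members were counted (21.3%), compared with 12.5% of all genes, and the median log2 FC was 0.17 over the members and 0.08 over all genes listed for S. BIRC3 was at 85.4, 126 and 129 CPM in control and 147, 341 and 555 CPM in pregnant S (log2 FC 1.62, SE 0.48, FDR = 0.25), and without pregnant S of gilt 01 it was called higher (log2 FC 1.95, FDR = 0.10). MAP3K8 (chr10:40714004-40746390, - strand), a kinase that the p105 protein holds inactive, was at 2.36, 2.92 and 3.29 CPM in control and 9.71, 10.7 and 14.6 CPM in pregnant S. Its groups did not overlap, and its p was just above the limit (log2 FC 1.99, SE 0.44, FDR = 0.14). In GE the same gene had equal group means of 8.67 CPM. CD14 in S rested on few reads, with 1, 2 and 14 counts in control and 13, 28 and 74 counts in pregnant libraries (log2 FC 3.18, SE 0.98, FDR = 0.26). Without control S of gilt 04, its log2 FC was 4.78 (FDR = 0.22). The likelihood ratio test and DESeq2 each called 4 members higher (NFKBIA, BIRC3, CD14 and MAP3K8) and 1 lower (TLR4). NFKBIE was at 3.15 to 4.76 CPM in control and 8.27 to 13.4 CPM in pregnant S (log2 FC 1.45, SE 0.44, FDR = 0.26), and NFKBIB had a log2 FC of 0.63 (SE 0.43). The subunits NFKB2 (log2 FC 1.03, SE 0.41), RELB (0.92, SE 0.49), REL (0.71, SE 0.31), NFKB1 (0.64, SE 0.31) and RELA (-0.26, SE 0.25) were not called. Of the surrounding genes listed for S, RPS6KA5 (log2 FC -1.80) and IL1A (-2.60) were called lower and none higher.

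**Figure D4:**
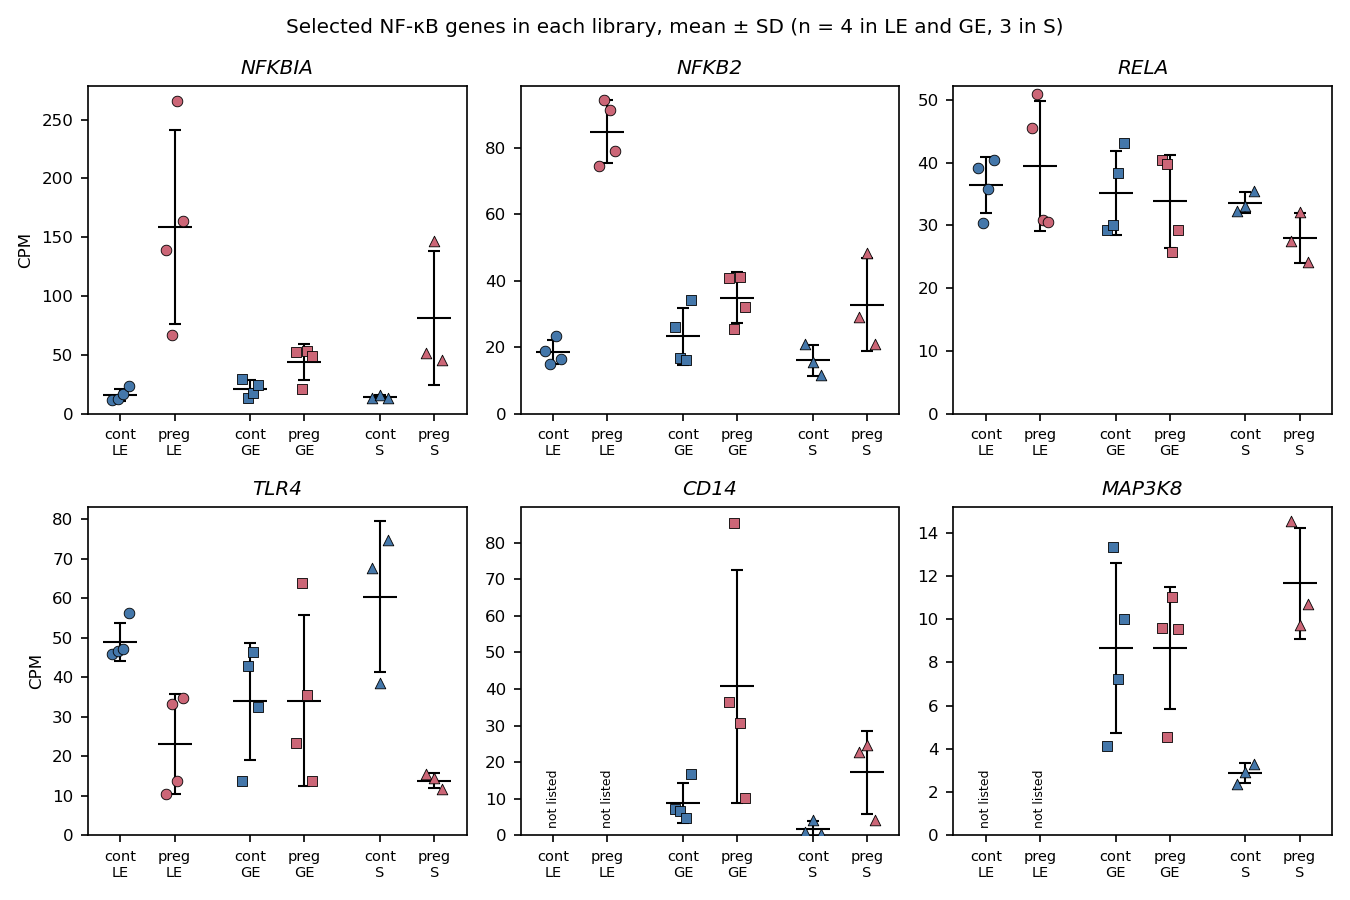
CPM in each library for NFKBIA, NFKB2, RELA, TLR4, CD14 and MAP3K8, by group and cell type, with bars for the mean ± SD and axes that start at 0. CPM were scaled separately for each cell type, so that the comparison is between control and pregnant within a cell type, and CD14 and MAP3K8 were not listed for LE.

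Whether the response to pregnancy differed between cell types was tested by interaction terms in a joint fit of the 22 libraries over the 10643 genes listed for all 3 cell types, 42 of them members. No member and none of all genes (0.0%) passed an FDR below 0.01 in any of the 3 differences in this fit, and the likelihood ratio test called no member either. Between LE and GE, 12 of 42 members had an unadjusted p below 0.05 (12.5% of all genes did), and in these 12 the difference was positive, that is, the log2 FC was higher in LE (6.9% of all genes in that direction). The largest difference was that of NFKBIA, at 2.27 on the log2 scale (SE 0.60, FDR = 0.092), followed by NFKB2 with 1.64 (SE 0.39, FDR = 0.067). TNFAIP3 (1.49, SE 0.66), BIRC3 (1.36, SE 0.55) and NFKBIZ (1.35, SE 0.44) came next. Leaving out the 3 libraries of gilt 13 reduced the 12 members to 6, and the share of all genes in that fit was not counted. Without the 2 libraries rich in fibroblast markers, the difference was 2.03 for NFKBIA (FDR = 0.15) and 1.54 for NFKB2 (FDR = 0.11).

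The libraries of 1 gilt are paired across cell types, and the differences were fitted again with the gilt as a replicate block. Between LE and GE the SE of NFKBIA went from 0.60 to 0.40, and that of NFKB2 stayed at 0.39. No member passed an FDR below 0.01 in that fit, while 0.395% of all genes did. The lowest FDR values among members were 0.0145 for NFKBIA (2.17, SE 0.40), 0.017 for TBK1 (0.97, SE 0.19), 0.0187 for REL (1.26, SE 0.25), 0.0188 for TNIP1 (1.20, SE 0.24), 0.0198 for BIRC3 (1.23, SE 0.25) and 0.0383 for NFKB2 (1.64, SE 0.39). Of all genes, 2.93% had an FDR below 0.05 there.

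Between LE and S, without the block, 4 of 42 members had an unadjusted p below 0.05 (9.52%), a share below that of all genes (10.8%). The share of all genes by direction is not given. The 4 members were TRAF2 (1.67, SE 0.47), IKBKE (1.30, SE 0.36), NFKB2 (1.21, SE 0.43) and TNIP1 (0.84, SE 0.32), each with the higher log2 FC in LE. With the gilt as a block there were 9 (15.2% of all genes), namely these 4 with TBK1, IRAK4, NFKBIA and REL at a higher log2 FC in LE and TLR3 at a lower one (-0.71, SE 0.31), and the lowest FDR among members was 0.15 (IKBKE). Without the 2 libraries rich in fibroblast markers, and without the block, the difference between LE and S was 0.51 for NFKBIA and 0.59 for REL. In that fit it was 1.21 for IKBKE, 1.07 for NFKB2 and 0.83 for TNIP1. Between GE and S there were 2 of 42 members without the block (4.76%), a share below that of all genes (6.05%). They were TLR4 with a difference of 2.17 (SE 0.68, FDR = 0.79) and NFKBIA with -1.46 (SE 0.65, FDR = 0.81). Without the 2 libraries rich in fibroblast markers these were 1.97 and -1.53. With the block there were 6 (9.9% of all genes). TLR4 (1.90, SE 0.68, FDR = 0.43) and RIPK2 (0.94, SE 0.40) had the higher log2 FC in GE, and BIRC3 (-0.82, SE 0.28), TLR2 (-1.60, SE 0.67), REL (-0.65, SE 0.28) and NFKBIA (-0.98, SE 0.45, FDR = 0.50) had the higher one in S. The decrease of TLR4 called in S is thus not shown to differ from its values in GE or LE.

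**Figure D5:**
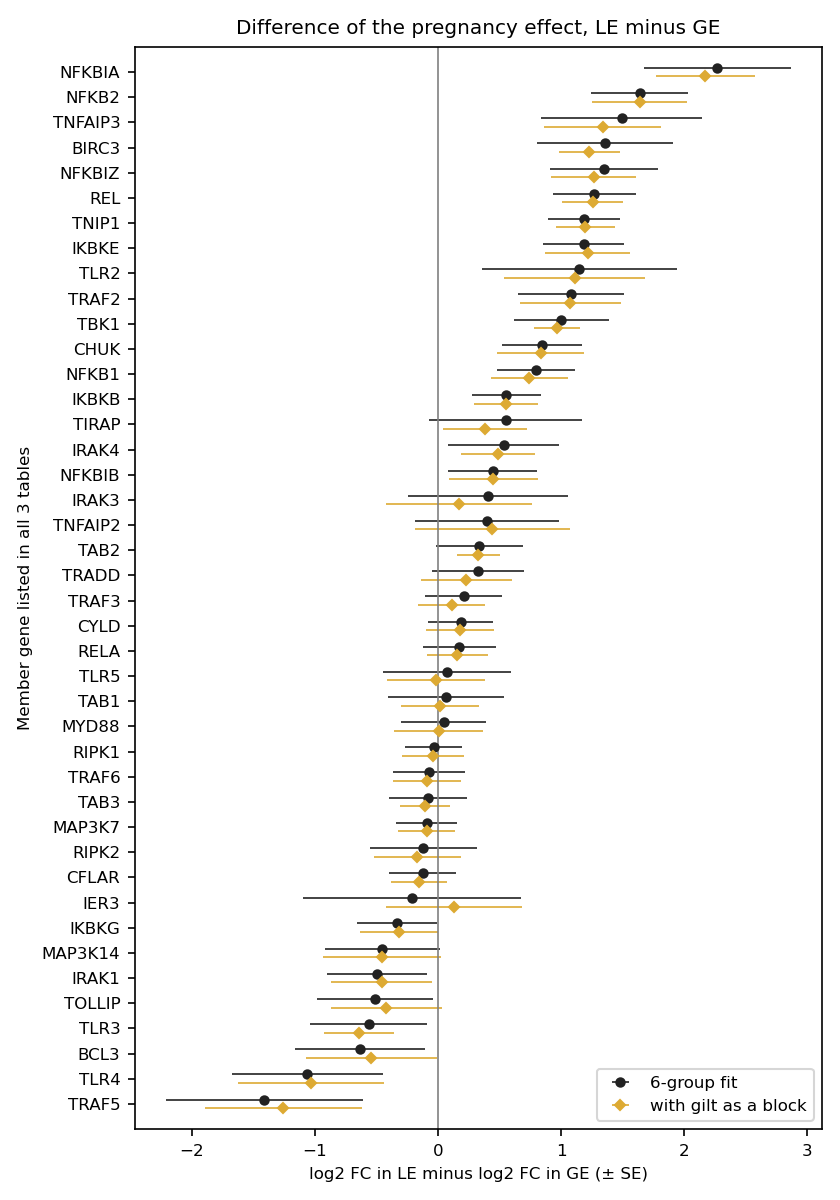
Difference between the log2 FC in LE and that in GE (± SE) for the 42 members listed for all 3 cell types, in the fit of 6 groups (circles) and with the gilt as a replicate block (diamonds). NFKBIA (2.27) and NFKB2 (1.64) lie at the top with positive differences, and the block shortens the error bars of TBK1, BIRC3 and NFKBIA.

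Levels between cell types, averaged over both groups of gilts in the same joint fit, differed for few members. Between GE and LE, 4 of 42 were called at an FDR below 0.01, whereas 14.1% of all genes were. CFLAR, an inhibitor of caspase 8 and a target of NF-κB, was at 132 ± 27 (control) and 169 ± 27 CPM (pregnant) in GE and at 86.4 ± 8.6 and 101 ± 26 CPM in LE on the joint scale (SD, n = 4 each). It was higher in GE by 0.67 on the log2 scale (SE 0.14, FDR = 0.0015). TRADD, an adaptor of the tumour necrosis factor receptor, was also higher in GE (0.82, SE 0.19, FDR = 0.0037), and 25.7% of its exon bases overlap other genes on the opposite strand. IKBKE (-0.80, SE 0.17, FDR = 0.0018) and TRAF3 (-0.75, SE 0.16, FDR = 0.002) were lower in GE. TRAF3 keeps MAP3K14 low in resting cells, and it was at 42.6 ± 1.8 and 68.0 ± 16 CPM in control and pregnant LE and at 27.1 ± 11 and 37.6 ± 4.1 CPM in GE (SD, n = 4 each). For IKBKE the difference lay mainly between the pregnant groups, with 33.3 ± 4.1 CPM in LE and 12.8 ± 1.6 CPM in GE, against 8.17 ± 2.5 and 7.13 ± 0.77 CPM in the controls. With the gilt as a block, where 20.8% of all genes were called, the 4 calls stayed, and IRAK4, a kinase recruited by MYD88, was added as lower in GE (-0.64, SE 0.15, FDR = 0.0049).

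Leaving out the 3 libraries of gilt 04 or those of gilt 13 left CFLAR as the only call between GE and LE, whereas the 4 calls stayed without the 2 libraries that were rich in fibroblast markers. Between S and LE no member was called (0.799% of all genes were), 12 had an unadjusted p below 0.05 (21.2% of all genes), and NFKB2 had the lowest FDR (0.038, -0.81 in S, SE 0.22). Between S and GE no member and no gene was called, and no member had an unadjusted p below 0.05 (8.16% of all genes did).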

How the data were processed

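RNA of LCM areas was sequenced by the authors as single reads (Ovation SoLo libraries), mapped with Hisat2 to Sscrofa11.1, freed of PCR duplicates by random adapter bases and filtered by CPM. The deposited tables, 1 per cell type, hold whole-number read counts per gene without normalization. Which program counted the reads, whether it used strand and at what CPM the filter was set are not given in the sources used here. Totals per library were 893912 to 4020796 counts on listed genes, and low genes are imprecise in the smallest library.

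Symbols and coordinates came from the NCBI annotation of the same assembly. The 3 tables were fitted separately with edgeR 4.0.16 under R 4.3.3, using TMM, estimateDisp and the quasi-likelihood F test over all listed genes. Calls used the study's limits, for LE a Benjamini-Hochberg FDR below 0.01, and for GE and S a p below 0.0021 without adjustment, beside which the FDR is printed. In the study, that p corresponded to its FDR limit in LE. The 2 limits do not match in the fits made here. TNFAIP3 in LE had a p of 0.0015 in the quasi-likelihood F test with an FDR of 0.013 and was not called. The limit for GE and S is thus looser than that for LE. Differences between cell types came from 1 joint fit of 22 libraries and 10643 genes (6 contrasts, FDR below 0.01). SE was the absolute log2 FC divided by the square root of F. The procedure was also run on simulated counts. These were drawn independently for each library, so that run cannot show how the pairing of libraries of 1 gilt affects the results. P-values of the fits within 1 cell type measure the spread between gilts. In the joint fit without the gilt as a block, libraries of the same gilt enter as independent. Its p-values therefore do not account for the pairing.

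The labels number the gilts, so an equal number marks 1 animal across cell types. The deviations of such libraries from the group means were correlated. The median r was 0.257 for LE with GE, 0.314 for LE with S and 0.468 for GE with S, and r exceeded 0.1 in 6 of 8, 6 of 6 and 5 of 6 gilts. The gilt was a replicate block only in joint fits, since pregnant and control gilts are different animals.

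The members, the lists of other pathway genes and the markers were chosen with earlier results of these data known. Named with values were the members called in any cell type, the 5 subunits, NFKBIA, NFKBIB, NFKBIE, CD14 and TLR4, the members with the largest differences between cell types and those missing from a table. Alternatives were DESeq2 size factors or library size alone, filterByExpr, the likelihood ratio test, the Wald test of DESeq2 1.42.0, other limits, the 6 gilts with an S library, and each library or gilt left out. Fits without the 2 libraries highest in fibroblast markers were added after the data had been seen.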

Additional observations from a re-analysis of the deposited data

Results flagged for a closer look

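Of 180 groups of 4 libraries (a member in control or pregnant LE or GE), 8 (4.44%) held a library set apart from the other 3 by Dixon's criterion, about as many as the 1 in 20 that chance gives. In control LE, TAB1 was at 28.4 CPM in gilt 02 with the others from 22.6 CPM, TLR3 was at 35.1 CPM in gilt 02 with the others from 50.1 CPM, and TLR4 was at 56.2 CPM in gilt 13 with the others from 45.8 CPM. In pregnant LE, both such values were those of gilt 01, the library with the fewest counts, with TRAF5 at 24.5 CPM (others from 6.65 CPM) and CHUK at 66.5 CPM (others from 36.4 CPM). In control GE, both were those of gilt 06, with IKBKE at 8.05 CPM (others from 6.59 CPM) and RIPK2 at 61.6 CPM (others from 34.3 CPM). In pregnant GE, NFKBIA was at 20.5 CPM in gilt 03 with the others from 49.1 CPM. TRAF5 in pregnant LE is the value that bears on a call, since TRAF5 was called lower without that library. Pregnant LE of gilt 01 also had the most fibroblast marker signal of the pregnant LE libraries (20000 CPM, others 7585 to 11956 CPM). Its epithelial marker signal was the lowest of them (2938 CPM, others 4073 to 4253 CPM). The part of depth or of other cells in its values was not tested.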

How the results depend on the processing

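The 11 members called higher in LE were the same with DESeq2 size factors, library size alone or filterByExpr. The likelihood ratio test and DESeq2 each called 14, adding NFKB1, TNFAIP3 and IER3. The 6 gilts with an S library alone called 6, for which fewer samples entered the fit. For fits other than the main ones and those with the gilt as a block, the share of all genes called was not counted. For the FDR limits in S, that share is not given either. Counts of members in such cases cannot be set against all genes. Leaving out 1 library gave 8 to 13, and 8 members (IKBKE, TRAF2, NFKB2, RELB, NFKBIA, NFKBIB, NFKBIE and TNIP1) kept the call in all 8 such fits. The highest count was that without pregnant LE of gilt 01. Members called lower in LE numbered 1 with the likelihood ratio test and DESeq2 (TRAF5 in both), 2 at an FDR below 0.05 and 0 to 1 without 1 library. In GE, 1 member (CD14) was called higher with the likelihood ratio test and DESeq2, and 0 to 1 without 1 library, with the 1 (CD14) found without pregnant GE of gilt 14. In S, 4 were called higher with either of these tests, 0 at an FDR below 0.05 or 0.01, and 0 to 2 without 1 library. The 1 called lower in S (TLR4) was not called at those FDR limits (0 members). The cause of these changes was not tested.

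Between GE and LE, members called higher in GE numbered 1 in the 6 gilts with an S library and 1 to 2 without 1 gilt, and members called lower numbered 4 at an FDR below 0.05 and 0 to 2 without 1 gilt. Between S and LE, 1 was lower at an FDR below 0.05 (NFKB2). For neither comparison is the share of all genes at an FDR below 0.05 given, so these counts cannot be set against all genes. With the gilt as a replicate block, members called between GE and LE were 2 higher and 3 lower in GE, and the block changed no other count of called members. Library size alone moved the median log2 FC of all genes in LE from 0.01 to -0.14, and the LE calls are to be read against that shift.

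Values near 0 changed sign. RELA in LE had a log2 FC of -0.059 with library size alone, -0.071 in the 6 gilts and -0.066 to 0.20 without 1 library. TLR4 in GE had -0.030 with library size alone, -0.30 in the 6 gilts and -0.48 to 0.27 without 1 library, and TRAF2 in S had -0.014 with library size alone and -0.22 to 0.23 without 1 library. Without 1 library, REL in GE lay between -0.073 and 0.18 and RELA in GE between -0.16 and 0.052, and without 1 gilt the difference between GE and S lay between -0.67 and 0.011 for NFKB2 and between -0.13 and 0.43 for IKBKE. In S, 1 library of an arm of 3 left out leaves 2, and the smallest library limits low genes most.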
